A study of Mus musculus with 56 samples.

Results

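Nilotinib 30 mg/kg was compared with vehicle in the livers of 16 female APOE*3Leiden.CETP mice, 8 in each group, out of the 56 mice of the series. The mice of the comparison were taken by their labels alone (compound Nilo at 30 mg/kg, or Ctrl), with no measured value in the choice. All of them carried the human APOE*3Leiden, APOC1 and CETP transgenes, which give a lipoprotein profile closer to that of humans. They were 9 to 14 weeks old at the start and ate a Western-type diet with 15% cacao butter and 0.15% cholesterol. The nilotinib mice were gavaged once a day with drug and once with the carboxymethyl cellulose (5%) vehicle for 16 weeks, and the control mice were gavaged with vehicle only. The 8 livers sequenced per group came from groups of 15 (nilotinib) and 20 (control) randomized mice. Per the study's methods, some of these control mice were killed before week 16 to follow atherosclerosis. Poly(A) RNA was sequenced and reads were counted per gene. A further 3 groups of 8 mice, given nilotinib 10 mg/kg once a day, imatinib 150 mg/kg in 2 daily doses or ponatinib 10 mg/kg once a day on the same diet, serve to show where the 30 mg/kg nilotinib livers differed from them. These groups and the ponatinib 3 mg/kg group also entered the fit of 48 mice that set the spread of the main test.

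Nilotinib is an oral inhibitor of the ABL kinase used in chronic myeloid leukaemia, and it also blocks KIT, the PDGF receptors and the DDR collagen receptors. It is cleared by the liver, largely through CYP3A enzymes, and it inhibits the bilirubin-conjugating enzyme UGT1A1. In patients it can raise plasma cholesterol and glucose. The liver makes and clears most plasma lipoproteins, burns or stores fatty acids under control of transcription factors such as PPARα and SREBP, and secretes most clotting and complement proteins, so these gene groups are described in turn.

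Of 14090 genes tested, 307 were higher and 463 lower in the nilotinib livers at a Benjamini-Hochberg adjusted p below 0.05 in edgeR's quasi-likelihood test, which is 5.46% of the genes tested (2.18% higher and 3.29% lower). At the unadjusted cut-off of p below 0.01, 1298 genes passed (9.21%). Fold changes were moderate: the median log2 fold change was 0.59 among the higher and -0.59 among the lower genes, 59 of the called genes changed by at least 1 on the log2 scale, and the median over all genes was 0.03. The 8 nilotinib mice did not overlap with the 8 control mice for 247 genes (1.75%), 66 of them higher (0.468%) and 181 lower (1.28%). Without control mouse 46 the count fell to 496 genes (174 higher, 322 lower).

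The libraries held between 7027550 and 8260305 reads on genes in the nilotinib mice and between 7696730 and 17996732 in the control mice. Of the uniquely aligned reads, 9.41% to 12.7% fell outside annotated genes in the nilotinib mice (10.5% ± 1.38, SD, n = 8) and 7.55% to 8.67% in the control mice (7.97% ± 0.422, SD, n = 8). The groups did not overlap in this share (exact permutation test, two-sided, p = 0.000155, the smallest that 8 against 8 mice can give), and mice 31 and 44 had the highest values. The nuclear RNAs Malat1 and Neat1 were called higher: Malat1 had a median of 122 CPM in the controls (102 to 155) and of 204 CPM with nilotinib (140.1 to 643) (log2 fold change 1.18 ± 0.28, adjusted p = 0.0076), with the highest values in mice 31 and 44, and Neat1 (log2 fold change 0.80 ± 0.20, adjusted p = 0.012) was highest in mouse 20. Of the 8 long nuclear or intron-rich RNAs tested, 4 were called higher and their summed level was 3633 to 9384 CPM in control and 5823 to 12845 CPM in nilotinib mice. Short genes tended to be higher and long genes lower: the median exonic length was 2064 bases for the genes called higher, 5776 for those called lower and 4129 for all genes, and the median log2 fold change went from 0.25 in the shortest of 5 equal classes of genes to -0.10 in the longest. When the share of reads outside genes was added to the model as a covariate, 49 genes were called (0.348%; 15 higher, 34 lower), 47 of them among the 770. With the length trend of each mouse taken out, 471 genes were called (3.34%; 152 higher, 319 lower), 399 of them among the 770. The part of these library measures in the results was not tested, and the main gene groups are given with their counts in these fits. On the second principal component of the 16 libraries nilotinib mouse 54 stood apart, and without it 610 genes were called.

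**Figure D1:**
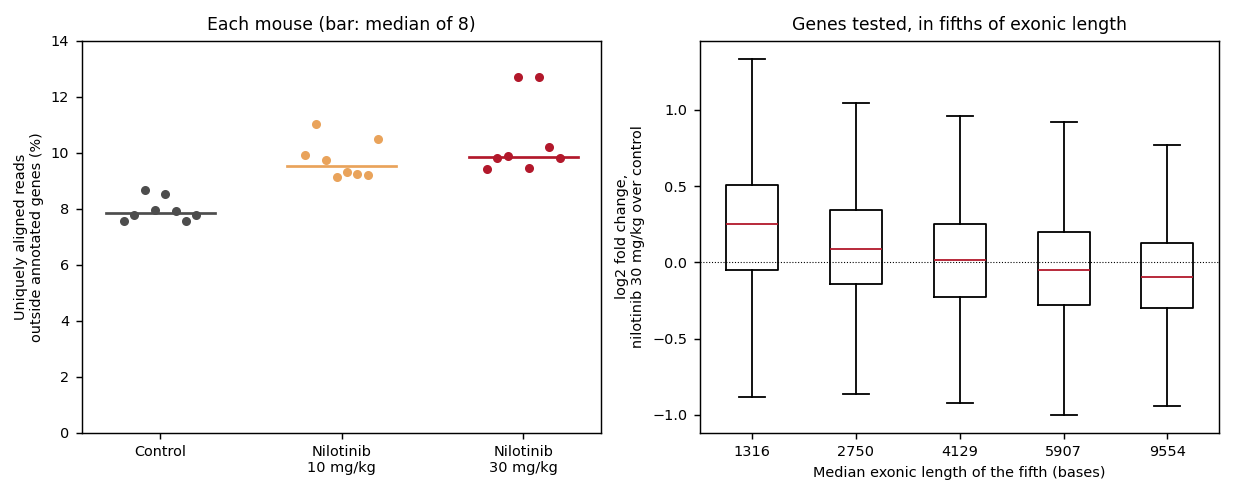
Left, the share of uniquely aligned reads outside annotated genes (%) in each mouse of the control, nilotinib 10 mg/kg and nilotinib 30 mg/kg groups, with bars at the medians (7.85%, 9.51% and 9.84%). Right, the log2 fold change of nilotinib 30 mg/kg over control for all genes in 5 equal classes of exonic length, from a median of 0.25 in the shortest to -0.10 in the longest (boxes: quartiles, whiskers: 1.5 times the interquartile range, points beyond not drawn).

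Ppara and Cpt1a of the fatty acid oxidation list, and the neighbouring UDP-glucuronosyltransferase genes Ugt1a1 and Ugt1a5, were called lower. Of the 46 tested genes of that list, Ppara and Cpt1a were the 2 lower, and 3 were higher. The promoter windows of Ppara, Cpt1a, Ugt1a1 and Ugt1a5 are shown (RefSeq, build GRCm38.p6, 250 bases before to 50 after the start, 5′ to 3′ on the gene's strand). Mup17 and Mup18 are shown because their high values came from the same mouse and their windows can be compared. The windows lie at Ppara chr15:85735526-85735825 (plus strand), Cpt1a chr19:3323051-3323350 (plus strand), Ugt1a1 chr1:88211709-88212008 (plus strand), Ugt1a5 chr1:88165762-88166061 (plus strand), Mup17 chr4:61595783-61596082 (minus strand) and Mup18 chr4:61674045-61674344 (minus strand). Capitals mark, on either strand, the 7 motifs searched: GCGTG, the core that the aryl hydrocarbon receptor binds, CACGTG, the E-box of clock factors, TTATGTAA, the D-box of Dbp and its relatives, TGATGCAA, an element of the stress factor ATF4, AGGTCA, the core that nuclear receptors bind, TATAAA, the TATA box, and CCAAT, the CCAAT box. Such a match is only a description of the letters.
Ppara: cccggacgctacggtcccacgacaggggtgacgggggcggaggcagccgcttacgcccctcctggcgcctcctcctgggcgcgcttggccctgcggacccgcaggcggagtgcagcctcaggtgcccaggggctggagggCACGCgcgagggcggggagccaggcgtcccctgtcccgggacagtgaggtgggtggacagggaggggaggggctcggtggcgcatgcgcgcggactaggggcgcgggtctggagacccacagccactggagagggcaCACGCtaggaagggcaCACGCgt
Cpt1a: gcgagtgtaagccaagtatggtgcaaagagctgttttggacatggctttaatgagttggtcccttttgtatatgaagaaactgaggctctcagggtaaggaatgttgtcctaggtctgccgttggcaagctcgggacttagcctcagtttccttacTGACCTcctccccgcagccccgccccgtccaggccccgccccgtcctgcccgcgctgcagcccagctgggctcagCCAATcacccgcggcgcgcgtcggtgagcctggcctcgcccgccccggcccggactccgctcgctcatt
Ugt1a1: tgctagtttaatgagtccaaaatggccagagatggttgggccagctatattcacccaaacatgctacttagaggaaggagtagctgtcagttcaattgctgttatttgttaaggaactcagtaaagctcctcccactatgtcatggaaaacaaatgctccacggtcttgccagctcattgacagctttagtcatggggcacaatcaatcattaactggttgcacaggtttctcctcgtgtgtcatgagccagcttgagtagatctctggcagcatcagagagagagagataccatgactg
Ugt1a5: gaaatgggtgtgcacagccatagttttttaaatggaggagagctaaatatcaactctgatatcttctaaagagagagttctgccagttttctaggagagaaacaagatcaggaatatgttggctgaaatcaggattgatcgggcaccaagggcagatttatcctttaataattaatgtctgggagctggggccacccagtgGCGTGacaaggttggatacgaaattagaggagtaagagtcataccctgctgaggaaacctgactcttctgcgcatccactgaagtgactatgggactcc
Mup17: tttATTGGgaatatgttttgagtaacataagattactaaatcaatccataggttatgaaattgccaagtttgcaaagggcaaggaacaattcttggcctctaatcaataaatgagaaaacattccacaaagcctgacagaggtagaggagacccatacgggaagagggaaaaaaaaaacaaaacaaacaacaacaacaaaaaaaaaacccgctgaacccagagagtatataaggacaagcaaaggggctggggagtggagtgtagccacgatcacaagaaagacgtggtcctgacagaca
Mup18: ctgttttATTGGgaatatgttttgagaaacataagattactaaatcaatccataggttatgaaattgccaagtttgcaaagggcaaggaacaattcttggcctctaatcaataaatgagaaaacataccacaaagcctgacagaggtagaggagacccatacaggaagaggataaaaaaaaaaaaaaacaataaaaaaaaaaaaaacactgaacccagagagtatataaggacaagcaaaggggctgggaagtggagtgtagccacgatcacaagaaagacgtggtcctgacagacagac
The Ppara window held GCGTG in 3 places, the Cpt1a window held AGGTCA and CCAAT once each, and the Ugt1a1 window held none of the 7. GCGTG was present in 50.2% of the 10263 windows of tested genes, in 51.6% of the 215 of genes called higher and in 53.8% of the 320 of genes called lower. AGGTCA was present in 12.6%, 13.5% and 13.1% of them. TATAAA was found in 7.53% of all windows, in 12.6% of the higher and 8.75% of the lower genes. Shifted by 4 bases, the Mup17 and Mup18 windows shared 216 of 296 bases without gaps.

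The 10 genes with the lowest p were all lower in the nilotinib livers, and 9 of them are given here. Fads6, which codes for a member of the fatty acid desaturase family and lies at chr11:115279622-115297663 (GRCm38), was at 149 to 177 CPM in the controls, median 159, and at 66.3 to 102 CPM with nilotinib, median 83.5 (log2 fold change -0.93 ± 0.12, adjusted p = 5.5e-06). Every nilotinib mouse was below every control mouse for Fads6 (exact permutation p = 0.000155). Slc38a4, an amino acid transporter of the hepatocyte membrane (chr15:96994820-97055956), ranged from 1094 to 2015 CPM (median 1484) in control and from 705 to 1048 CPM (median 845) in nilotinib mice (log2 fold change -0.77 ± 0.12, adjusted p = 9.7e-05). The transcription factor gene Nfix was lower in every nilotinib mouse (log2 fold change -0.94 ± 0.15, adjusted p = 0.00012), as were Xdh, the enzyme that makes uric acid from xanthine (log2 fold change -0.67 ± 0.11, adjusted p = 0.00021), Erlin1 of the endoplasmic reticulum membrane (log2 fold change -0.86 ± 0.14, adjusted p = 0.00024), the translation scaffold Eif4g1 (log2 fold change -0.61 ± 0.10, adjusted p = 0.00024), the spliceosome core component Prpf8 (log2 fold change -0.82 ± 0.14, adjusted p = 0.00028) and Ndst1, which sulfates heparan sulfate chains (log2 fold change -1.42 ± 0.24, adjusted p = 0.00042). These genes and Npc1 kept their call when any of the 16 mice was left out. With the covariate all of them but Ndst1 stayed called, with log2 fold changes between -0.85 (Fads6) and -0.48 (Eif4g1), and Ndst1 was not called (-1.03, adjusted p = 0.07).

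**Figure D2:**
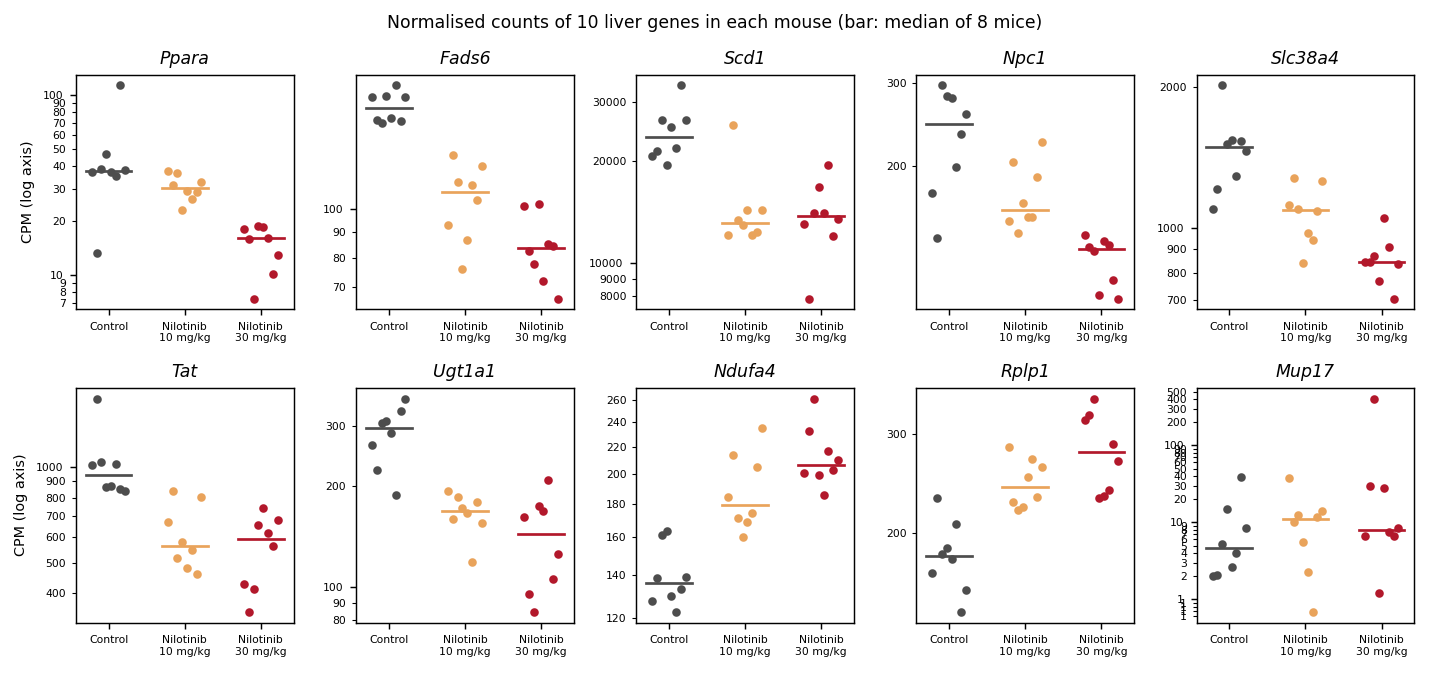
Normalised counts (CPM, log axis) of 10 genes in each of the 8 control, 8 nilotinib 10 mg/kg and 8 nilotinib 30 mg/kg mice, with bars at the medians. Ppara, Fads6, Scd1, Npc1, Slc38a4, Tat and Ugt1a1 are lower and Ndufa4 and Rplp1 higher at 30 mg/kg, while the high mean of Mup17 comes from 1 mouse at 406 CPM.

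Genes of fatty acid burning and making changed in part. Ppara, the nuclear receptor that switches on fatty acid oxidation in fasting (chr15:85734983-85802819), had a median of 37.9 CPM in the controls (13.2 to 113) and of 16.0 CPM with nilotinib (7.39 to 18.7) (log2 fold change -1.61 ± 0.28, adjusted p = 0.00044). Only control mouse 12, at 13.2 CPM, reached the nilotinib range, control mouse 46 was the highest by far, and the exact permutation p was 0.00093. The call held with the covariate (-1.45), with the length trend taken out (-1.60) and without any 1 mouse (log2 fold changes from -1.75 to -1.27). Cpt1a, which carries long-chain fatty acids into mitochondria and is the gate of their oxidation, was at 315 to 769.9 CPM in the controls, median 592, and at 273 to 494 CPM with nilotinib, median 329 (log2 fold change -0.63 ± 0.16, adjusted p = 0.014). The groups overlapped for Cpt1a, and it was not called with the covariate (-0.29) or the length trend taken out (-0.52). Other members of the same list of 46 tested genes went the other way: Etfb, which passes electrons from fatty acid oxidation to the respiratory chain (log2 fold change 0.53 ± 0.13, adjusted p = 0.009), the fatty acid carrier Fabp1 (log2 fold change 0.69 ± 0.22, adjusted p = 0.046) and the ω-hydroxylase Cyp4a31 (log2 fold change 0.85 ± 0.22, adjusted p = 0.015). The call of Fabp1 was lost without any 1 of control mice 1, 12, 33, 40, 46 and 52 or nilotinib mice 4, 15, 20, 37 and 44 (log2 fold change then between 0.57 and 0.70). Cyp4a31 was not called without nilotinib mouse 4 (log2 fold change then 0.72). Counted together, 3 members rose, 2 fell and the median log2 fold change was 0.13. With the covariate 1 member was called, Ppara, and with the length trend taken out 3 were, of which Ppara and Cyp4a31 are among these 5.

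Of 31 genes of fatty acid and triglyceride synthesis, 5 fell and none rose (median -0.13). Scd1, the abundant desaturase that makes oleate, was at 19518 to 33525 CPM in the controls, median 23611, and at 7859.7 to 19456 CPM with nilotinib, median 13752 (log2 fold change -0.82 ± 0.19, adjusted p = 0.0063), and its values did not overlap. Fads2, which desaturates polyunsaturated fatty acids, ranged from 367 to 762 CPM (median 516) in control and from 209 to 376 CPM (median 286) in nilotinib mice (log2 fold change -0.97 ± 0.21, adjusted p = 0.0029). The others were Gpam, the first enzyme of triglyceride assembly (log2 fold change -1.25 ± 0.34, adjusted p = 0.02), the glycolytic enzyme Pklr (log2 fold change -0.64 ± 0.20, adjusted p = 0.044) and Acacb, whose product malonyl-CoA blocks Cpt1a (log2 fold change -0.78 ± 0.24, adjusted p = 0.044). Gpam was not called without any 1 of control mouse 46 or nilotinib mouse 15 (log2 fold change then between -1.16 and -0.95). Pklr lost its call without any 1 of control mice 12, 22, 33, 46 and 52 or nilotinib mice 4, 15, 20, 49 and 54 (log2 fold change between -0.65 and -0.57). The call of Acacb was lost without any 1 of control mice 12, 22, 33, 46 and 52 or nilotinib mice 4, 15, 31, 37, 49 and 54 (log2 fold change then between -0.81 and -0.63). Srebf1, the transcription factor that drives this programme, had a log2 fold change of -0.52 ± 0.16 and lay just outside the threshold. With the length trend taken out 4 of the 5 stayed called, all but Acacb. With the covariate none of the 5 was called, and Srebf1 was (-0.84, adjusted p = 0.014).

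Of 28 tested genes of cholesterol synthesis and uptake 2 fell and none rose, at a median of -0.26. Sqle, the squalene epoxidase, had a median of 12.4 CPM with nilotinib against 27.3 CPM in the controls and was not called (log2 fold change -0.91 ± 0.42, adjusted p = 0.22). With the length trend taken out 2 members were called and with the covariate 1. Npc1, which exports cholesterol from lysosomes, had a median of 246 CPM in the controls (142 to 296) and of 134 CPM with nilotinib (106 to 143) (log2 fold change -0.87 ± 0.14, adjusted p = 0.00024). A single control mouse fell within the nilotinib range of Npc1, and of the 46 lysosomal and autophagy genes tested 3 more were called lower, Atp6v1a and Scarb2 among them, and none higher. With the covariate 1 of the 46 was called and with the length trend taken out 2 were, all of them lower. Scarb2 lost its call without any 1 of control mice 1, 28, 33, 46 and 52 or nilotinib mice 4, 20, 37, 44 and 49 (log2 fold change between -0.47 and -0.39). Bile acid synthesis had no called member among 24: Cyp7a1, its rate-limiting enzyme, ran from 14.5 to 106 CPM with nilotinib and from 52.4 to 189 CPM in the controls (log2 fold change -1.23 ± 0.46, adjusted p = 0.1).

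Lipoprotein genes were called in both directions, 5 higher and 3 lower of 32. The 5 higher were small exchangeable apolipoproteins: Apoc4 (log2 fold change 0.70 ± 0.15, adjusted p = 0.0031), Apoa2 (log2 fold change 0.73 ± 0.16, adjusted p = 0.0037), Apoc1 (log2 fold change 0.65 ± 0.15, adjusted p = 0.0075), Apoc3, an inhibitor of triglyceride clearance (log2 fold change 0.59 ± 0.15, adjusted p = 0.0092), and Apoe (log2 fold change 0.35 ± 0.11, adjusted p = 0.039). Apoc4 ranged from 261 to 384 CPM (median 276) in control and from 434 to 585 CPM (median 462) in nilotinib mice, without overlap. The 3 lower were the receptor Lrp1 (log2 fold change -0.66 ± 0.14, adjusted p = 0.0032), Apob, the backbone of VLDL and LDL (log2 fold change -0.40 ± 0.12, adjusted p = 0.035), and Mttp, which loads lipid onto it (log2 fold change -0.39 ± 0.12, adjusted p = 0.045). Apob was not called without any 1 of control mice 28, 46 and 52 or nilotinib mice 4, 15, 20 and 49 (log2 fold change then between -0.40 and -0.39). Apoe lost its call without any 1 of control mice 1, 28, 33, 40, 46 and 52 or nilotinib mice 4, 15, 20, 37, 44 and 54 (log2 fold change between 0.32 and 0.36). The call of Mttp was lost without any 1 of control mice 12, 28, 46 and 52 or nilotinib mice 4, 15, 31, 49 and 54 (log2 fold change then between -0.40 and -0.36). Apoe and Mttp were named after their values were seen, as list members outside the naming rule. The mice also carry human APOE and APOC1 transgenes, and reads were aligned to the mouse genome. The part of transgene reads in the values of Apoe and Apoc1 was not tested. The same genes differ in length, with exons of 537 bases for Apoa2 and 13934 bases for Apob. With the covariate none of the 8 called members of this list (32 tested) stayed called, and with the length trend taken out 3 did, Apoc4, Apoa2 and Lrp1.

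In glucose metabolism 8 of 35 genes fell and 1 rose (median -0.27), and 2 were called with the covariate and 6 with the length trend taken out, all lower. Slc2a2, the glucose transporter of the hepatocyte, had a median of 436 CPM in the controls (285 to 546) and of 281 CPM with nilotinib (229.7 to 326) (log2 fold change -0.62 ± 0.13, adjusted p = 0.0029), and it stayed called with the covariate (-0.64). Pcx, which makes oxaloacetate for gluconeogenesis, fell without overlap (log2 fold change -0.57 ± 0.11, adjusted p = 0.0016), and the gluconeogenic enzyme Fbp1 (log2 fold change -0.38 ± 0.11, adjusted p = 0.027) and the glycogen-branching enzyme Gbe1 (log2 fold change -0.79 ± 0.18, adjusted p = 0.007) were lower too. Both insulin receptor substrates were lower, Irs1 (log2 fold change -0.60 ± 0.17, adjusted p = 0.03) and Irs2 (log2 fold change -1.20 ± 0.38, adjusted p = 0.048), and the glucagon receptor Gcgr was the member that rose (log2 fold change 0.44 ± 0.13, adjusted p = 0.034). Fbp1 lost its call without any 1 of control mouse 22 or nilotinib mice 4, 15 and 49 (log2 fold change between -0.36 and -0.30). The call of Irs1 was lost without any 1 of control mice 12, 28 and 46 or nilotinib mice 4, 15 and 37 (log2 fold change then between -0.59 and -0.50). Irs2 was not called without any 1 of control mice 1, 22, 28, 33, 46 and 52 or nilotinib mice 4, 15, 20, 31 and 49 (log2 fold change then between -1.24 and -1.06). Gcgr lost its call without any 1 of control mice 1, 12, 33, 40, 46 and 52 or nilotinib mice 4, 15 and 20 (log2 fold change between 0.36 and 0.43).

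Amino acid and urea genes moved one way wherever they were called: 11 of 53 fell and none rose, at a median of -0.18. Tat, the tyrosine aminotransferase induced by glucocorticoids and glucagon, ranged from 837 to 1640.2 CPM (median 943) in control and from 350.0 to 742 CPM (median 593) in nilotinib mice (log2 fold change -0.87 ± 0.19, adjusted p = 0.0032), so that every nilotinib mouse was below every control mouse. Cps1, the first enzyme of the urea cycle, had a median of 3494 CPM in the controls (2516 to 5008) and of 2093 CPM with nilotinib (977 to 3023) (log2 fold change -0.87 ± 0.22, adjusted p = 0.01). Aass of lysine breakdown (log2 fold change -0.62 ± 0.13, adjusted p = 0.0037), Uroc1 of histidine breakdown (log2 fold change -0.47 ± 0.12, adjusted p = 0.015), Mat1a, which makes S-adenosylmethionine (log2 fold change -0.46 ± 0.13, adjusted p = 0.023), Gls2, the liver glutaminase (log2 fold change -0.67 ± 0.18, adjusted p = 0.017), and Arg1, the last enzyme of the urea cycle (log2 fold change -0.41 ± 0.12, adjusted p = 0.027), were lower as well. Gls2 lost its call without any 1 of control mouse 22 or nilotinib mouse 15 (log2 fold change between -0.59 and -0.56). The call of Mat1a was lost without any 1 of control mouse 22 or nilotinib mice 15 and 49 (log2 fold change then between -0.44 and -0.38). Arg1 was not called without any 1 of control mice 12 and 22 or nilotinib mice 20 and 49 (log2 fold change then between -0.39 and -0.31). With the length trend taken out 10 members of the list were called, and with the covariate 2, Tat (-0.94) and Gls2 (-0.90). Several of these enzymes are made mainly near the portal vein, and 6 of 22 periportal genes fell with none higher (median -0.38; 1 called with the covariate and 7 with the length trend taken out), led by Pigr, which carries IgA into bile (log2 fold change -0.79 ± 0.14, adjusted p = 0.00062). None of 21 pericentral genes was called (median -0.13), and whether the periportal and pericentral lists differ was not tested. Hnf4a, the hepatocyte's master transcription factor, was at 512 to 634 CPM in the controls, median 579.6, and at 291 to 499.9 CPM with nilotinib, median 402 (log2 fold change -0.53 ± 0.13, adjusted p = 0.0079).

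Among drug handling genes, most of the lower calls were UDP-glucuronosyltransferases. Ugt1a1, the bilirubin-conjugating enzyme, ranged from 188 to 361 CPM (median 295) in control and from 84.7 to 208 CPM (median 144) in nilotinib mice (log2 fold change -1.01 ± 0.21, adjusted p = 0.0024). Ugt1a6b had a median of 22.7 CPM in the controls (19.1 to 25.4) and of 10.6 CPM with nilotinib (5.54 to 16.6) (log2 fold change -1.10 ± 0.24, adjusted p = 0.0032), and Ugt1a5 was at 30.8 to 123 CPM in the controls, median 72.5, and at 6.69 to 53.5 CPM with nilotinib, median 27.5 (log2 fold change -1.40 ± 0.37, adjusted p = 0.014). These genes share exons: 1311 of the 2224 exonic bases of Ugt1a1 and 1311 of the 2203 of Ugt1a5 are exonic in another Ugt1a gene. A read that lies in several genes alike was set aside as ambiguous, so levels of single Ugt1a genes are uncertain. The share of ambiguous reads was 2.45% to 2.77% in nilotinib and 2.79% to 3.34% in control mice, without overlap (exact permutation p = 0.000155), and its part in these values was not tested. Ugt3a1, an enzyme of the same kind in another family, fell without overlap (log2 fold change -1.10 ± 0.28, adjusted p = 0.012), and Ugt2a3 was lower (log2 fold change -0.37 ± 0.12, adjusted p = 0.049). Of 49 conjugating enzymes tested, 5 fell, all of them UDP-glucuronosyltransferases, and Mgst1 (log2 fold change 0.43 ± 0.11, adjusted p = 0.01) and Gstm2 (log2 fold change 0.63 ± 0.18, adjusted p = 0.028), both glutathione transferases, rose. The call of Gstm2 was lost without any 1 of control mice 28, 33, 46 and 52 or nilotinib mice 20, 49 and 54 (log2 fold change then between 0.54 and 0.63). Ugt2a3 was not called without any 1 of control mice 12, 22, 28, 33, 46 and 52 or nilotinib mice 15, 20, 31, 49 and 54 (log2 fold change then between -0.39 and -0.30). With the length trend taken out 5 of the list were called, and none with the covariate, where Ugt1a1 stood at -0.72.

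Among 22 cytochromes P450 induced through the xenobiotic receptors CAR and PXR, Cyp3a11, the mouse counterpart of the enzyme that clears nilotinib, was the 1 called: it was at 1310.3 to 1848 CPM in the controls, median 1508, and at 1418 to 2972 CPM with nilotinib, median 2199 (log2 fold change 0.45 ± 0.13, adjusted p = 0.034). The call of Cyp3a11 was lost without any 1 of control mice 22, 28, 33, 40 and 46 or nilotinib mice 31, 37, 44, 49 and 54 (log2 fold change then between 0.36 and 0.45). A count of 1 in 22 (4.55%) is near the 5.46% of all genes. Cyp2b10, the classic CAR target, was at 4.28 CPM (median) in the controls and 4.57 CPM with nilotinib. Cyp1a1, the marker of the aryl hydrocarbon receptor, was near 1 CPM in both groups, and none of 7 genes of that receptor was called. The oxidative stress regulator NRF2 had 4 of 20 target genes higher, the thioredoxin Txn1 (log2 fold change 0.51 ± 0.12, adjusted p = 0.0077), the ferritin heavy chain Fth1 (log2 fold change 0.33 ± 0.09, adjusted p = 0.014), the peroxidase Prdx1 (log2 fold change 0.29 ± 0.08, adjusted p = 0.017) and Osgin1 (log2 fold change 0.91 ± 0.26, adjusted p = 0.028), but its usual marker Nqo1 was not called (log2 fold change 0.03 ± 0.29, adjusted p = 0.98). None of the 20 was called with the covariate and 2 were with the length trend taken out. Fth1 was not called without control mouse 46 (log2 fold change then 0.29). Prdx1 lost its call without any 1 of control mouse 46 or nilotinib mouse 20 (log2 fold change between 0.24 and 0.25). The call of Osgin1 was lost without any 1 of control mice 12, 33, 46 and 52 or nilotinib mice 37 and 49 (log2 fold change then between 0.81 and 0.91). Of 20 transporters 1 fell, the bile salt and drug importer Slco1b2 (log2 fold change -0.46 ± 0.14, adjusted p = 0.045), a share near the 5.46% of all genes, and none was called with the covariate or with the length trend taken out. Slco1b2 was not called without any 1 of control mice 22, 28, 33, 46 and 52 or nilotinib mice 4, 15, 20, 31, 44, 49 and 54 (log2 fold change then between -0.48 and -0.39).

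Plasma protein genes were mixed. C3, the central complement protein, was at 8059.7 to 12786 CPM in the controls, median 10795, and at 5027 to 7128 CPM with nilotinib, median 6069.7 (log2 fold change -0.79 ± 0.19, adjusted p = 0.0066), and C9, a part of the membrane attack complex, ranged from 257 to 369 CPM (median 292) in control and from 123 to 207 CPM (median 148) in nilotinib mice (log2 fold change -0.93 ± 0.20, adjusted p = 0.0033), both without overlap. Masp1, a protease of the lectin pathway, had a median of 53.9 CPM in the controls (28.7 to 110.1) and of 24.2 CPM with nilotinib (16.6 to 27.9) (log2 fold change -1.30 ± 0.27, adjusted p = 0.0021). C4b (log2 fold change -0.60 ± 0.17, adjusted p = 0.029) and Hc (log2 fold change -0.48 ± 0.15, adjusted p = 0.044), which codes for complement C5, fell too, while Fcna, a ficolin made by macrophages (log2 fold change 0.85 ± 0.22, adjusted p = 0.014), and C8g (log2 fold change 0.44 ± 0.13, adjusted p = 0.028) rose, which made 5 lower and 2 higher of 32 complement genes. None of the 32 was called with the covariate, where the median was 0.06, and 4 were with the length trend taken out, all lower. C4b lost its call without any 1 of control mice 22, 28 and 46 or nilotinib mice 15, 31, 49 and 54 (log2 fold change between -0.59 and -0.54). For Hc the fits without 1 mouse are not given here. The call of C8g was lost without any 1 of control mice 1, 33, 40, 46 and 52 or nilotinib mice 20 and 44 (log2 fold change then between 0.36 and 0.43). In coagulation 4 of 44 genes fell: F5 (log2 fold change -0.47 ± 0.10, adjusted p = 0.0032), Serpind1, the thrombin inhibitor heparin cofactor II (log2 fold change -0.41 ± 0.11, adjusted p = 0.018), F13b (log2 fold change -0.51 ± 0.14, adjusted p = 0.021) and Lman1, which exports factors V and VIII from the endoplasmic reticulum (log2 fold change -0.41 ± 0.11, adjusted p = 0.017). Vkorc1, the target of warfarin (log2 fold change 0.58 ± 0.16, adjusted p = 0.018), and Serpina1a (log2 fold change 0.44 ± 0.13, adjusted p = 0.028) rose. F5 and F13b kept their calls without any 1 mouse. Serpind1 was not called without nilotinib mouse 15 (log2 fold change then -0.37). Lman1 lost its call without nilotinib mouse 15 (log2 fold change -0.37). The call of Vkorc1 was lost without nilotinib mouse 15 (log2 fold change then 0.52). Serpina1a was not called without any 1 of control mice 1, 33, 40, 46 and 52 or nilotinib mice 4, 15, 20 and 44 (log2 fold change then between 0.35 and 0.43). Without nilotinib mouse 15 the list had 2 called members, with the covariate none, and with the length trend taken out 4, all lower. F2, which codes for prothrombin, was not called (log2 fold change -0.17 ± 0.10, adjusted p = 0.36). Trf, the iron carrier transferrin, was at 1297 to 2331 CPM in the controls, median 1745, and at 2413 to 3598 CPM with nilotinib, median 2639, the one acute-phase or secreted protein gene of 33 that was called (log2 fold change 0.63 ± 0.13, adjusted p = 0.0025). A count of 1 in 33 (3.03%) is below the 5.46% of all genes. None of the 33 was called with the covariate, and 2 were with the length trend taken out, 1 higher and 1 lower.

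**Figure D3:**
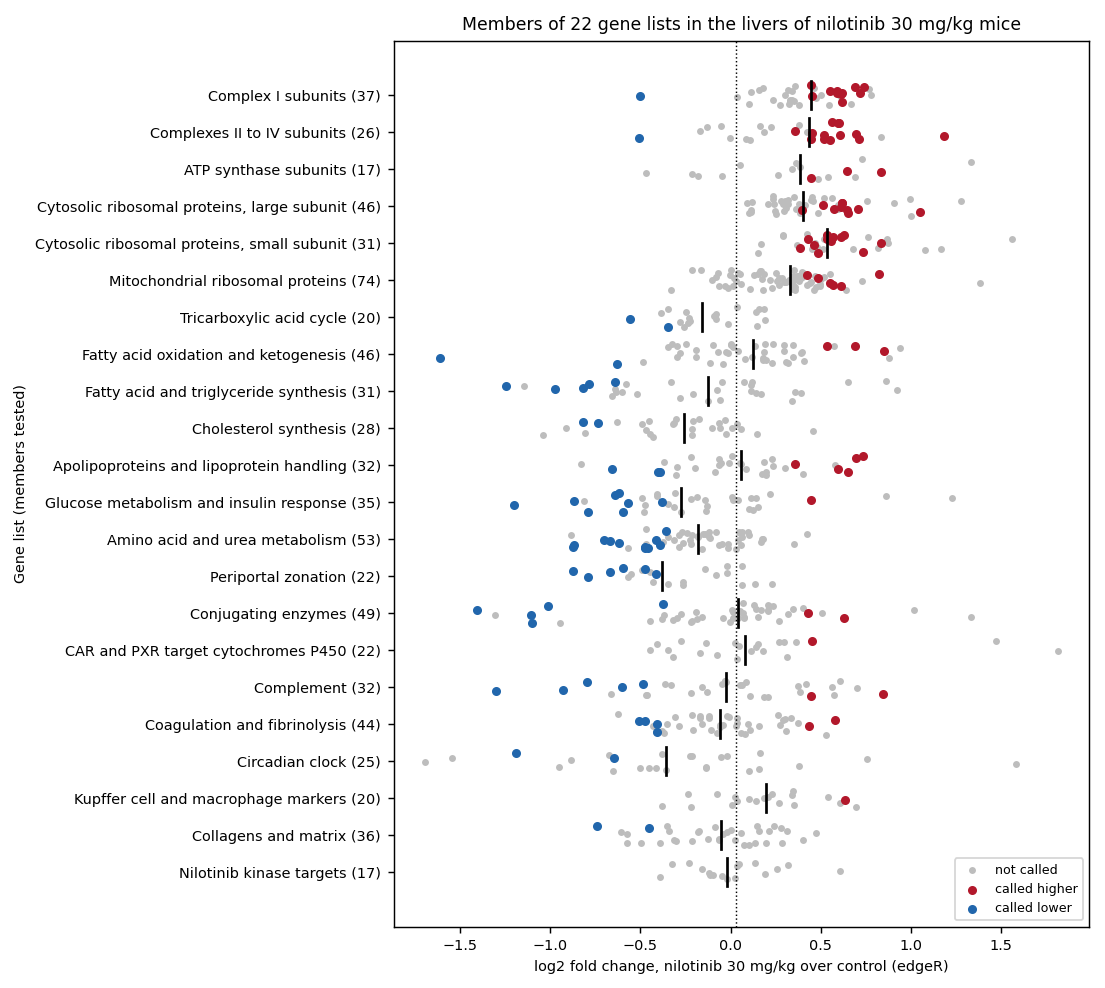
The log2 fold change of nilotinib 30 mg/kg over control for each tested member of 22 gene lists. Red points are members called higher, blue points members called lower (edgeR, adjusted p below 0.05) and grey points neither, black bars are list medians and the dotted line is the median of all genes (0.03). Respiratory chain and cytosolic ribosomal lists lie to the right of that line (medians 0.38 to 0.53), as does the mitochondrial ribosomal list (0.33). Lists to the left include the periportal (-0.38), clock (-0.36), glucose (-0.27), cholesterol (-0.26) and amino acid (-0.18) lists.

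Small subunits of the respiratory chain and the ribosome were higher in large numbers. Of 80 nuclear-coded subunits of oxidative phosphorylation tested, 27 rose (33.8%) and 2 fell, with a median log2 fold change of 0.43 beside 0.03 over all genes. Against control, 51 were higher and 1 lower with imatinib, and 54 higher and 2 lower with ponatinib 10 mg/kg (medians 0.59 and 0.66). Over all 14090 genes, 757 were higher and 599 lower with imatinib, and 986 higher and 794 lower with ponatinib 10 mg/kg. Between nilotinib 30 mg/kg and either of these drugs 0 of the 80 were called. Ndufa4 of the respiratory chain ranged from 123 to 164 CPM (median 136) in control and from 185 to 261 CPM (median 206) in nilotinib mice (log2 fold change 0.62 ± 0.12, adjusted p = 0.00092), and Atp5e of the ATP synthase had a median of 69.5 CPM in the controls (59.7 to 87.8) and of 128 CPM with nilotinib (106 to 158) (log2 fold change 0.83 ± 0.16, adjusted p = 0.00083), both without overlap. Ndufb11 (log2 fold change 0.61 ± 0.12, adjusted p = 0.0013), Cox6c (log2 fold change 0.69 ± 0.16, adjusted p = 0.0055) and Uqcrh (log2 fold change 0.56 ± 0.13, adjusted p = 0.0076) were further examples. The 2 members that fell were Sdha, the catalytic subunit of complex II (log2 fold change -0.51 ± 0.11, adjusted p = 0.0037), and Ndufs1, a core subunit of complex I (log2 fold change -0.50 ± 0.12, adjusted p = 0.011), and the tricarboxylic acid cycle enzymes Ogdh (log2 fold change -0.56 ± 0.10, adjusted p = 0.00062) and Dld (log2 fold change -0.35 ± 0.10, adjusted p = 0.032) fell as well. Without control mouse 1, 18 of the 80 were called. The list's median exonic length was 1737 bases against 4129 for all genes, and 4126 bases for Sdha and 8086 for Ndufs1. With the length trend taken out 11 members were called and with the covariate none, at medians of 0.25 and 0.20. Of the 20 tricarboxylic acid cycle genes tested, 1 was called in each of these 2 fits, as lower. Of 12 genes coded by mitochondrial DNA itself, mt-Rnr2, a ribosomal RNA, was the 1 called (log2 fold change 0.58 ± 0.17, adjusted p = 0.028). mt-Rnr2 lost its call without any 1 of control mice 1, 12, 33, 40 and 46 or nilotinib mice 4, 15 and 54 (log2 fold change between 0.52 and 0.56). The call of Dld was lost without any 1 of control mice 12, 22 and 52 or nilotinib mice 4, 15, 20 and 31 (log2 fold change then between -0.35 and -0.31).

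Every one of the 77 cytosolic ribosomal protein genes tested had a log2 fold change above 0, from 0.09 to 1.56, and 22 of them were called (28.6%, all higher). Against control, 30 of the 77 were higher with imatinib and 33 with ponatinib 10 mg/kg, with none lower. Over all 14090 genes, 757 were higher with imatinib and 986 with ponatinib 10 mg/kg. Between nilotinib 30 mg/kg and these drugs 1 of the 77 was called, lower than with imatinib. Rplp1 of the ribosomal stalk had a median of 182 CPM in the controls (145 to 230.0) and of 278 CPM with nilotinib (230.1 to 346) (log2 fold change 0.62 ± 0.12, adjusted p = 0.0013), and Rps19 was at 25.6 to 38.4 CPM in the controls, median 31.4, and at 45.2 to 67.8 CPM with nilotinib, median 50.8 (log2 fold change 0.73 ± 0.15, adjusted p = 0.0024). Rplp1, Rps19 and Rpl4 (log2 fold change 0.39 ± 0.09, adjusted p = 0.0037) kept their calls with the covariate, where 4 members were called, and 9 were called with the length trend taken out. Ribosomal proteins have many processed pseudogenes with almost the same sequence, so a read that aligned in several places was not counted and levels of single members are uncertain. The number of such reads per 100 reads on genes was 62.0 to 84.9 in the nilotinib and 51.9 to 57.5 in the control mice. Mitochondrial ribosomal proteins went the same way with fewer calls (6 higher of 74, median 0.33; 0 with the covariate and 1 with the length trend taken out), and 6 of 39 proteasome subunits rose, such as Psmd4 (log2 fold change 0.47 ± 0.10, adjusted p = 0.0028), while the long Psmd1 fell (log2 fold change -0.70 ± 0.16, adjusted p = 0.0046). With the covariate none of the proteasome genes was called and with the length trend taken out 4 were. Among 45 translation initiation factors, Eif4g1, Eif4b (log2 fold change -0.39 ± 0.10, adjusted p = 0.014) and Eif4ebp2, a brake on cap-dependent translation (log2 fold change -1.22 ± 0.29, adjusted p = 0.0074), were lower and 2 subunits of eIF3 were higher. With the covariate 1 of the 45 was called and with the length trend taken out 3 were, all of them lower.

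Of 25 clock genes 2 fell and none rose, which is 8% beside 5.46% of all genes. The list's median log2 fold change was -0.36, with 19 genes below 0 and 6 above, and its median at 10 mg/kg was 0.06. Bhlhe40, a repressor driven by the clock, ranged from 86.0 to 295 CPM (median 174) in control and from 34.8 to 109 CPM (median 72.4) in nilotinib mice (log2 fold change -1.19 ± 0.24, adjusted p = 0.0019), and Cry2 had a median of 46.2 CPM in the controls (23.4 to 79.6) and of 31.5 CPM with nilotinib (26.2 to 36.3) (log2 fold change -0.65 ± 0.17, adjusted p = 0.014). Both stayed called with the covariate. Cry2 lost its call without control mouse 22 (log2 fold change -0.51). Other clock genes spread widely within each group: the output gene Dbp ran from 3.62 to 339 CPM in control and from 2.84 to 297 CPM in nilotinib mice, and Arntl, a core factor of the clock, from 0.613 to 30.4 and from 0 to 32.9 CPM. The labels used here give no time of death, and the part of the hour of sampling in these values was not tested.

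In the list of nilotinib kinase targets 0 of 17 genes were called, and so short a list cannot be set apart from the 5.46% of all genes. At an unadjusted p below 0.01 (edgeR) 1 of them was lower, and 1 was called lower at 10 mg/kg. Abl1 had a log2 fold change of -0.23 ± 0.13, Kit 0.05 ± 0.30, Pdgfra 0.13 ± 0.26, Pdgfrb -0.12 ± 0.25, Csf1r 0.04 ± 0.24 and Ddr1 -0.02 ± 0.41. Abl2 (median 12.0 CPM with nilotinib) and Ddr2 (median 8.30 CPM) were expressed at low levels and not called either.

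Markers of the liver's cell types gave the labelled tissue: Alb was the leading hepatocyte marker at a median of 87174 CPM in the controls, and the hepatocyte list had 4 of 8 members called, with Serpina1a and Cyp3a11 higher and Tat and Hnf4a lower (1 called with the covariate, 3 with the length trend taken out), at a summed level of 76562 to 137903 CPM in control and 69401 to 119790 CPM in nilotinib mice. Of 10 pancreatic markers 8 had no read in any of the 16 mice, Prss1, Pnlip and Cpa1 among them, and the list summed to 2.64 to 7.93 CPM in control and 5.66 to 15.7 CPM in nilotinib mice, with 5 of the latter above every control mouse. Of 6 fat markers 4 had no read, Adipoq, Lep and Plin1 among them, and the list, mainly Fabp4, summed to at most 17.0 CPM in control and 30.7 CPM in nilotinib mice, with 3 of the latter above every control mouse. In whole liver, fewer cells of a type and less RNA per cell cannot be told apart. Of the 20 Kupffer cell and macrophage markers 1 rose, Clec4f, the resident Kupffer cell lectin, which ranged from 102 to 266 CPM (median 189) in control and from 209 to 347 CPM (median 279) in nilotinib mice (log2 fold change 0.64 ± 0.19, adjusted p = 0.037). Clec4f was not called without any 1 of control mice 1, 12, 33 and 40 or nilotinib mice 4, 15, 20 and 31 (log2 fold change then between 0.54 and 0.63). A count of 1 in 20 is near the 5.46% of all genes, and none was called with the covariate or with the length trend taken out. The summed level of these 20 markers was 1106 to 2229 CPM in the controls and 1288 to 2766 CPM with nilotinib. None of 12 stellate, 12 sinusoidal endothelial, 16 lymphocyte or 7 red cell markers was called. The red cell markers, mainly haemoglobins, summed to 148 to 426 CPM in control and 248 to 729 CPM in nilotinib mice, and the lymphocyte markers to medians of 42.5 and 68.6 CPM, with 5 nilotinib mice above every control mouse. The part of these cells in the other results was not tested. Of 36 collagen and matrix genes 2 fell, the fibronectin gene Fn1, which was at 1606 to 3043 CPM in the controls, median 2121, and at 1011 to 1600.4 CPM with nilotinib, median 1258 without overlap (log2 fold change -0.74 ± 0.15, adjusted p = 0.0023), and Col18a1 (log2 fold change -0.45 ± 0.12, adjusted p = 0.018), while Col1a1 was not called (log2 fold change -0.49 ± 0.45, adjusted p = 0.64). That share (5.56%) is near the 5.46% of all genes, and 0 of the 36 were called with the covariate and 1 with the length trend taken out. The call of Col18a1 was lost without nilotinib mouse 15 (log2 fold change then -0.41).

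Several of the largest fold changes belonged to genes with low or uneven counts. Sntb1 (log2 fold change -1.57 ± 0.39, adjusted p = 0.011), Acss3 (log2 fold change -1.31 ± 0.34, adjusted p = 0.013), Pik3ap1, an adaptor of PI3 kinase (log2 fold change -1.23 ± 0.26, adjusted p = 0.0028), and Adcy9, an adenylyl cyclase (log2 fold change -1.28 ± 0.30, adjusted p = 0.0075), were lower. Egfl7, a protein secreted by endothelium, had a median of 27.8 CPM in the controls (21.6 to 36.0) and of 55.7 CPM with nilotinib (39.1 to 90.7) (log2 fold change 1.01 ± 0.21, adjusted p = 0.0024), without overlap. Gadd45g, a growth arrest gene, was at 3.69 to 12.6 CPM in the controls, median 6.59, and at 12.3 to 41.8 CPM with nilotinib, median 21.3 (log2 fold change 1.57 ± 0.48, adjusted p = 0.037), and Il3ra, the interleukin 3 receptor chain, ranged from 0.483 to 4.73 CPM (median 2.61) in control and from 5.14 to 12.6 CPM (median 7.47) in nilotinib mice (log2 fold change 1.55 ± 0.45, adjusted p = 0.027). Gadd45g was not called without any 1 of control mice 1, 22, 28, 33, 46 and 52 or nilotinib mice 4, 20 and 54 (log2 fold change then between 1.38 and 1.60). Il3ra lost its call without any 1 of control mice 12 and 46 or nilotinib mouse 15 (log2 fold change between 1.40 and 1.49). Tpt1 (log2 fold change 1.62 ± 0.37, adjusted p = 0.0056), Mapk15 (log2 fold change 1.44 ± 0.35, adjusted p = 0.0095), Mug-ps1 (log2 fold change 1.03 ± 0.21, adjusted p = 0.0024) and Peg3 (log2 fold change 1.16 ± 0.32, adjusted p = 0.02) were also among the highest, and Tpt1, which has many pseudogenes, was at only 6.98 CPM (median). The call of Peg3 was lost without any 1 of nilotinib mice 4 and 15 (log2 fold change then between 0.95 and 1.01).

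Mup18 and Mup17, neighbouring major urinary protein genes of similar sequence, had the highest fold changes among the called genes of at least 5 CPM, and both rested on nilotinib mouse 20. Mup18 was at 109 CPM in that mouse, between 0 and 12.3 CPM in the other 7 and between 0.240 and 4.41 CPM in the controls (log2 fold change 3.43 ± 0.85, adjusted p = 0.0099, exact permutation p = 0.1). Mup17 was at 406 CPM in mouse 20, between 1.22 and 29.5 CPM in the other 7 and between 2.02 and 38.7 CPM in the controls (log2 fold change 2.69 ± 0.74, adjusted p = 0.02, exact permutation p = 0.24). Without mouse 20 the log2 fold changes were 1.59 and 0.38, and neither was called. The female-type Cyp3a44 was also highest in mouse 20, at 181 CPM, against 1.58 to 25.8 CPM in the controls, and was not called (log2 fold change 1.81 ± 0.74, adjusted p = 0.15). Iigp1, an interferon-induced GTPase that was called lower (log2 fold change -0.93 ± 0.28, adjusted p = 0.033), had 2807 CPM in control mouse 33 and 244 to 449 CPM in the other 7 controls, against 228 to 498 CPM with nilotinib (exact permutation p = 0.42). Iigp1 was not called without any 1 of control mouse 33 or nilotinib mice 15, 31, 37, 49 and 54 (log2 fold change then between -0.93 and -0.04).

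No gene separated the 2 doses of nilotinib in edgeR (0 of 14090 called, 762 at an unadjusted p below 0.05 where chance gives 704, and 171 below 0.01 where chance gives 141), and DESeq2 called 2. The same controls stand behind both doses, so the values are given side by side: 174 genes were called at 10 mg/kg (1.23%; 56 higher, 0.397%, and 118 lower, 0.837%). Fads6 had a log2 fold change of -0.62 at 10 mg/kg and -0.93 at 30 mg/kg. For Ppara these values were -0.55 and -1.61, and the difference between doses was -1.06 ± 0.28 (unadjusted p = 0.00038, adjusted p = 0.56). Erlin1 (-0.36 and -0.86) and Npc1 (-0.41 and -0.87) had differences between doses of -0.50 ± 0.14 and -0.46 ± 0.14, which failed the correction (adjusted p = 0.57 and 0.64). For Tat the values were -0.73 and -0.87 (difference -0.14 ± 0.19), and for Masp1 -1.28 and -1.30 (difference -0.02 ± 0.27). The share of reads outside genes was 9.14% to 11.0% at 10 mg/kg, above every control mouse too.

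Against the other kinase inhibitors, whose doses differ so that compound and dose cannot be told apart, the 30 mg/kg nilotinib livers differed in 466 genes from imatinib (3.31%; 311 higher with nilotinib, 2.21%, and 155 lower, 1.1%) and in 218 from ponatinib 10 mg/kg (1.55%; 113 higher, 0.802%, and 105 lower, 0.745%). Most of the genes given here were chosen after their values were seen. Cholesterol synthesis was lower with nilotinib in both contrasts, in 11 of 28 genes against imatinib and 19 of 28 against ponatinib, with none higher. Sqle differed by -1.95 ± 0.42 and -2.26 ± 0.43 on the log2 scale (edgeR adjusted p = 0.0034 and 0.0023), and Fdft1, the squalene synthase, by -0.84 ± 0.18 and -0.92 ± 0.18. Against control, these genes stood at -0.91 and -0.06 and were not called. Over all 14090 genes, 757 were higher and 599 lower than control with imatinib, and 986 higher and 794 lower with ponatinib. The medians of the cholesterol list against control were -0.26 with nilotinib, 0.47 with imatinib (4 higher, none lower) and 0.70 with ponatinib (14 higher, 1 lower). Collagens and other matrix genes were higher with nilotinib than with imatinib (14 of 36, none lower) and than with ponatinib (8 of 36), as for Col1a1 (2.53 ± 0.48 and 2.28 ± 0.48). Against control, 18 of the 36 were lower with imatinib and 18 with ponatinib, none higher (medians -0.97 and -0.91), beside a median of -0.05 with nilotinib. Macrophage genes were higher than with imatinib in 7 of 20 cases, up to 4.36 ± 0.76 for Gpnmb, a gene of lipid-laden macrophages that did not differ from control by more than its error (-0.38 ± 0.63). Cyp2b10 was lower than with imatinib (-2.70 ± 0.63), and 6 of the 22 P450 genes were lower in that contrast. Cyp3a11 was higher than with ponatinib (0.74 ± 0.14, adjusted p = 0.002). Fads6 was lower with nilotinib than with either drug (-0.52 ± 0.12 and -0.47 ± 0.12), whereas Xdh did not pass the test in either contrast (-0.11 ± 0.11 and 0.00 ± 0.11).

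**Figure D4:**
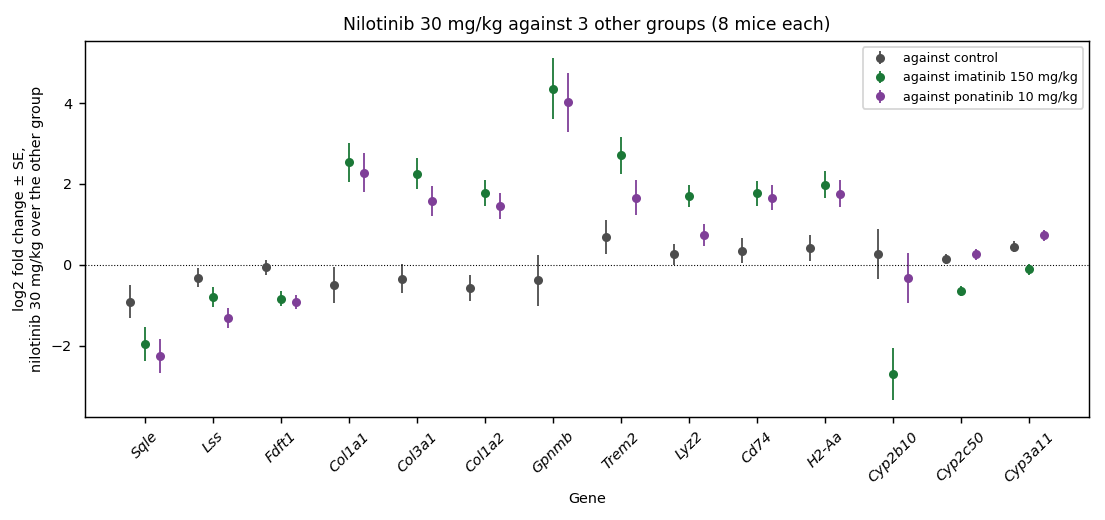
The log2 fold change (± SE, edgeR) of nilotinib 30 mg/kg over the control, imatinib 150 mg/kg and ponatinib 10 mg/kg groups, 8 mice each, for 14 genes, most of them chosen after their values were seen. Cholesterol synthesis genes lie below 0 and collagen and macrophage genes above 0 against both drugs, while against control the collagen and macrophage genes lie within 1 of 0.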

How the data were processed

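Livers of 56 mice were sequenced from poly(A) RNA (NEBNext Ultra, Illumina NextSeq 500). The authors deposited raw counts per gene for each mouse, made, per the study's methods and the submitters' processing notes, with TopHat2 2.0.14, Bowtie2 2.1.0, SAMtools 0.1.18 and HTSeq 0.6.1p1 on GRCm38. The strand setting and overlap mode are not given in the sources used here, so antisense and overlapping genes are uncertain.

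Summary lines of the counter were kept out of library sizes. Of 45513 gene IDs, 44671 were given a symbol, from GENCODE M21 or, where it was missing there, from a second list of gene names. Genes were filtered with filterByExpr, scaled by TMM and tested with edgeR 4.0.16 (quasi-likelihood, R 4.3.3) in 1 fit of 48 mice with a common spread, the L-NAME group left out, and p-values were adjusted by Benjamini-Hochberg over 14090 genes. CPM values use TMM library sizes. A gene was called below an adjusted p of 0.05. Errors are standard errors of the log2 fold change. Single values were compared by an exact two-sided permutation test over mice on log2(CPM + 0.5) for genes. Mice are separate animals, and no 2 libraries of a group agreed within sampling noise. Intervals between mice cover counting and animal variation together.

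The genes named are the 15 highest and 15 lowest fold changes among called genes of at least 5 CPM, the 10 lowest p-values, the called members with the lowest p (up to 6) or the 2 lowest p of each of 52 lists, the first gene of each list and 8 kinases. Some genes that this rule names are not reported here. Others (Apoe, Mttp, Gcgr, Ugt2a3, Hc, Sqle, Fdft1, Dbp, Cyp2b10 and Gpnmb) were named after their values were seen. The members and lists were chosen with earlier results of these data known. Alternatives were DESeq2 1.42.0, limma 3.58.1 (voom), RLE scaling, other filters, samples and thresholds, the share of reads outside genes as a covariate, each mouse left out and, chosen after seeing the data, the length trend taken out (lowess on exonic length) and mice 31 and 44 left out. In data simulated for this comparison on 13838 genes, 64% of genes changed by 1 on the log2 scale and 7% of those changed by 0.5 were recovered.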

Additional observations from a re-analysis of the deposited data

Results flagged for a closer look

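Within the groups of 8 mice, 270 sets of values were examined for 1 mouse far from the others (by Dixon's criterion on the gap to the nearest mouse), and 24 were flagged. For normally spread values chance flags about 1 in 20 such sets. The CPM values were taken without a log, so that rate may not hold here. Control mouse 46 was the highest for Acacb (402 CPM), Gpam (290.5 CPM), Kit (14.3 CPM), Lrp1 (1508 CPM), Mup17 (38.7 CPM), Ppara (113 CPM) and Prpf8 (318 CPM). Control mouse 22 stood apart for C9 (369 CPM) and Mat1a (5434 CPM), control mouse 12 for Tat (1640.2 CPM), control mouse 33 for Iigp1 (2807 CPM), control mouse 40 for Nqo1 (47.7 CPM) and control mouse 1 for Osgin1 (295 CPM). Among the nilotinib mice, mouse 20 stood apart for Mup17 (406 CPM), Mup18 (109 CPM), Cyp3a44 (181 CPM), Egfl7 (90.7 CPM) and reads with several alignments (84.9 per 100 reads on genes). Mouse 54 stood apart for Adcy9 (1.40 CPM), Cyp1a1 (5.09 CPM) and Ddr2 (17.3 CPM), mouse 37 for Apob (3578 CPM), mouse 49 for Col1a1 (196 CPM) and mouse 4 for Fdft1 (103.9 CPM).

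Outside the gene counts, both the share of reads outside annotated genes (mean 10.5%) and the reads with several alignments (mean 67.0 per 100 reads on genes) were above every control mouse in all 8 nilotinib mice.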

How the results depend on the processing

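No paired analysis was possible because the replicate numbers are serial numbers of single mice and no number is shared between groups. The 770 calls against control became 1376 in a fit of the 16 mice only, 2338 with limma voom, 49 with the share of reads outside genes as a covariate, 471 with the length trend taken out, 1298 at an unadjusted p below 0.01 and 244 at an adjusted p below 0.01, and leaving out 1 mouse gave 496 to 774. The contrast with 10 mg/kg had 0 calls, 2 with DESeq2 and 171 at the unadjusted cut-off. DESeq2 and the unadjusted cut-off gave 704 and 1027 calls against imatinib and 377 and 772 against ponatinib. The 29 oxidative phosphorylation calls became 44 (16 mice), 58 (voom), 0 (covariate), 11 (length), 19 (without mice 31 and 44), 45 (unadjusted) and 11 (adjusted p below 0.01), and 18 to 35 without 1 mouse. The 22 ribosomal protein calls became 4 (covariate), 9 (length), 14 (without mice 31 and 44) and 9 (adjusted p below 0.01), and 15 to 25 without 1 mouse. The 2 cholesterol calls became 7 (16 mice), 9 (voom), 1 (covariate) and 6 (unadjusted), and 2 to 3 without 1 mouse. The 1 P450 call became 0 (no filter on low counts, covariate, without mice 31 and 44, adjusted p below 0.01) or 2 (voom), and 0 to 1 without 1 mouse. The 5 fatty acid oxidation calls became 9 (16 mice), 12 (voom), 1 (covariate), 3 (length), 8 (unadjusted) and 2 (adjusted p below 0.01), and 4 to 7 without 1 mouse. The 6 coagulation calls became 11 (voom), 0 (covariate), 10 (unadjusted) and 1 (adjusted p below 0.01), and 2 to 7 without 1 mouse. The 2 clock calls became 8 (voom), 1 (length) and 1 (adjusted p below 0.01), and 1 to 3 without 1 mouse. The cause of these shifts was not tested. Of 161 named genes called, 160 were still called with DESeq2, 21 with the covariate and 99 with the length trend taken out, and 98 in all 16 fits without 1 mouse. Mup17 alone changed direction, to -0.079 with voom. In the 16 mice the covariate separates both groups fully, so its slope rests on all 48 mice.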
